A study of Mus musculus with 50 samples.

Results

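RNA levels were compared between RAW264.7 mouse macrophages that lack SGK1 and SGK3 and control RAW264.7 cells, all stimulated with DMXAA. The comparison rests on 17 of the 50 sequenced libraries, chosen by genotype and treatment as the labels give them, and by batch. The batches are told apart by library names that end in a number or a letter, and are called b1 and b2 here. The comparison was made separately in both of the batches that hold these groups, and the 2 results were then set side by side. Batch b1 holds 5 control and 5 double knockout libraries, numbered 1 to 5 in each group. Batch b2 holds 4 control libraries (K, L, M and N) and 3 double knockout libraries (T, U and X). Another 4 libraries, marked as reruns, were left out.

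SGK1 and SGK3 are serine/threonine kinases of the AGC family, close relatives of AKT, that act downstream of phosphoinositide 3-kinase. SGK1 is also controlled through its own transcription, and SGK3 is recruited to endosomes through a lipid-binding domain. STING is an adaptor of the endoplasmic reticulum that is activated by cyclic dinucleotides made by the DNA sensor cGAS. It recruits the kinase TBK1, which phosphorylates the transcription factor IRF3, and it also engages NF-kB. IRF3 turns on interferon beta and a set of early antiviral genes. Interferon beta then signals through its receptor to transcription factors that include STAT2 and IRF9 and turn on the wider set of interferon-stimulated genes, and macrophages keep some of these genes on at rest through low basal interferon signalling.

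RAW264.7 is an established macrophage-like line from mice. Both genotypes had been through CRISPR editing: control cells received an empty vector with a control guide RNA, and double knockout cells received guides against SGK1 and SGK3. The labels give 1 line per genotype without saying whether it is a clone, and do not say whether the double knockout cells of b1 and b2 are the same line. All 17 libraries came from cells given 10 µg/mL DMXAA, a small molecule that activates mouse STING, for 2 h. A vehicle is mentioned for part of the cells, without saying which libraries received it. Replicates are not described as separate cultures, so the p-values reflect the spread between libraries alone, which may be technical. Resting cells of both genotypes were sequenced in b2 (3 libraries each), and resting control cells in b1 (3 libraries), whereas b1 holds no resting double knockout cells. The b1 double knockout columns lack the letter that marks DMXAA in other column names, but Egr1, an immediate early gene, stood at 230, 191, 180, 215 and 122 CPM in them against 11 CPM in resting control cells of b1.

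Library totals ran from 64307786 to 101068327 counts in b1 and from 63461414 to 81703401 in b2. Levels are CPM, counts relative to a library total that was scaled by TMM within each batch, and differences are double knockout minus control on the log2 scale ± SE. A gene was called at an adjusted p under 0.05 in edgeR's quasi-likelihood test, fitted within each batch. The batches differed in spread, with a common biological coefficient of variation of 0.159 in b1 and 0.473 in b2. Double knockout library X of b2 had the fewest genes with a count (15041, against 16887 to 17788 in the other b2 libraries used) and the lowest share of ribosomal protein counts (3.52%, against 4.11% to 6.03%). It also had the highest mitochondrial share (6.92%, against 4.61% to 5.58%) and a slope of level, relative to the batch mean, on gene length of the other sign (0.18 log2 units per doubling of length, against -0.15 to 0), and the part of these signs in the b2 results was not tested. In b1, double knockout library 5 was the lowest of its group for many induced genes. All 10 macrophage markers listed, from Csf1r to Mpeg1, were above 1 CPM in each of the 4 groups. Of 30 markers of other cell types, 18 to 21 were at 0 by group and 1 at most exceeded 1 CPM (Cd79a, in b1 control cells), with summed levels of 0.518 to 2.86 CPM per library.

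The RNA of the first edited gene, Sgk1 (ENSMUSG00000019970.16, GRCm39 chromosome 10, 21758083 to 21875802), was lower in the double knockout in both batches. In b1 it stood at 46.4, 51.8, 54.8, 52.8 and 50.5 CPM in control libraries 1 to 5 and at 6.02, 5.46, 5.35, 4.5 and 3.07 CPM in the double knockout. In b2 the control libraries K to N held 24.7, 38.1, 36 and 37.4 CPM and the double knockout libraries T, U and X held 3.03, 2.51 and 1.71 CPM. Every double knockout library was below every control library of its batch. The difference was -3.39 ± 0.14 (SE, adjusted p = 3.33e-16) in b1 and -3.82 ± 0.65 (SE, adjusted p = 0.000549) in b2. Resting control cells had 1.62 ± 0.33 CPM in b1 and 2.11 ± 0.989 in b2 (SD, n = 3 each), so the stimulated double knockout stood above the resting control level in b1 and near it in b2. The SGK3 knockout of b1, which was not edited at Sgk1, had 22.1 ± 2.37 CPM with DMXAA (n = 5), also under the 51.3 ± 3.17 of its control cells.

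Sgk3 RNA (ENSMUSG00000025915.15, GRCm39 chromosome 1, 9868332 to 9971070) was not lower. Its level in b1 was 98.6, 109, 104, 101 and 97.4 CPM in control cells and 120, 122, 119, 119 and 119 in the double knockout, with all double knockout libraries above all control libraries (0.23 ± 0.04 SE, adjusted p = 1.77e-05). In b2 it was 133, 119, 130 and 116 CPM against 103, 129 and 145, with overlapping groups (0.01 ± 0.10 SE, adjusted p = 0.972). A count over the whole gene says nothing of the edited site or of whether the protein is made. Sgk2, the third member of the family, had a mean of at most 0.0114 CPM in the 4 groups and was not tested.

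Of 31 tested genes of the SGK and PI3K pathway, 3 were called up and 1 down in both batches, against 4.48% and 3.57% of the 15919 genes tested in both. The median difference was 0.07 in b1 and 0.21 in b2, beside -0.00 and -0.01 over all genes tested. Ndrg1, whose protein is a classical SGK substrate, was at 20.1, 22.1, 18.8, 16.9 and 17.6 CPM in control cells and 25.5, 28.4, 27.7, 23.1 and 22.2 in the double knockout of b1 (0.41 ± 0.11 SE, adjusted p = 0.00704). In b2 it was at 11.5, 14.6, 9.56 and 13.7 against 25.6, 23 and 20.6 (0.90 ± 0.14 SE, adjusted p = 0.000178). The groups did not overlap in either batch, and resting double knockout cells of b2 were also higher than resting control cells (21.5 against 12.4 CPM, adjusted p = 0.00393). Pdpk1, the kinase PDK1 that phosphorylates SGK and AKT, differed by 0.18 ± 0.05 (SE, adjusted p = 0.00571) in b1, with overlapping groups, and 0.52 ± 0.14 (SE, adjusted p = 0.0139) in b2. Pik3r5, a regulatory subunit of class IB phosphoinositide 3-kinase, rose from 103 ± 5.88 to 147 ± 4.53 CPM in b1 (SD, n = 5 each), and in b2 from 131 ± 7.69 (n = 4) to 184 ± 10.9 (n = 3). Its differences were nearly equal in size (0.52 ± 0.05 SE, adjusted p = 1.7e-09; 0.49 ± 0.08 SE, adjusted p = 0.000187). Tsc22d3, which encodes the glucocorticoid- and FOXO-responsive protein GILZ, rose in b1 (0.79 ± 0.12 SE, adjusted p = 2.64e-06) and did not pass in b2 (0.43 ± 0.38 SE, adjusted p = 0.57). Ndrg2, a relative of Ndrg1 that was named after its values were seen, was called in opposite directions with separated groups, at 174 ± 4.28 CPM in control and 201 ± 12.4 in double knockout cells of b1, and at 210 ± 8.57 and 176 ± 7.23 in those of b2 (0.21 ± 0.04 SE, adjusted p = 0.000189; -0.25 ± 0.08 SE, adjusted p = 0.0285). The b2 call of Ndrg2 ended in 7 of the alternative analyses, among them without T (adjusted p = 0.0726), X (0.116), M (0.0608) or N (0.0833).

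**Figure D1:**
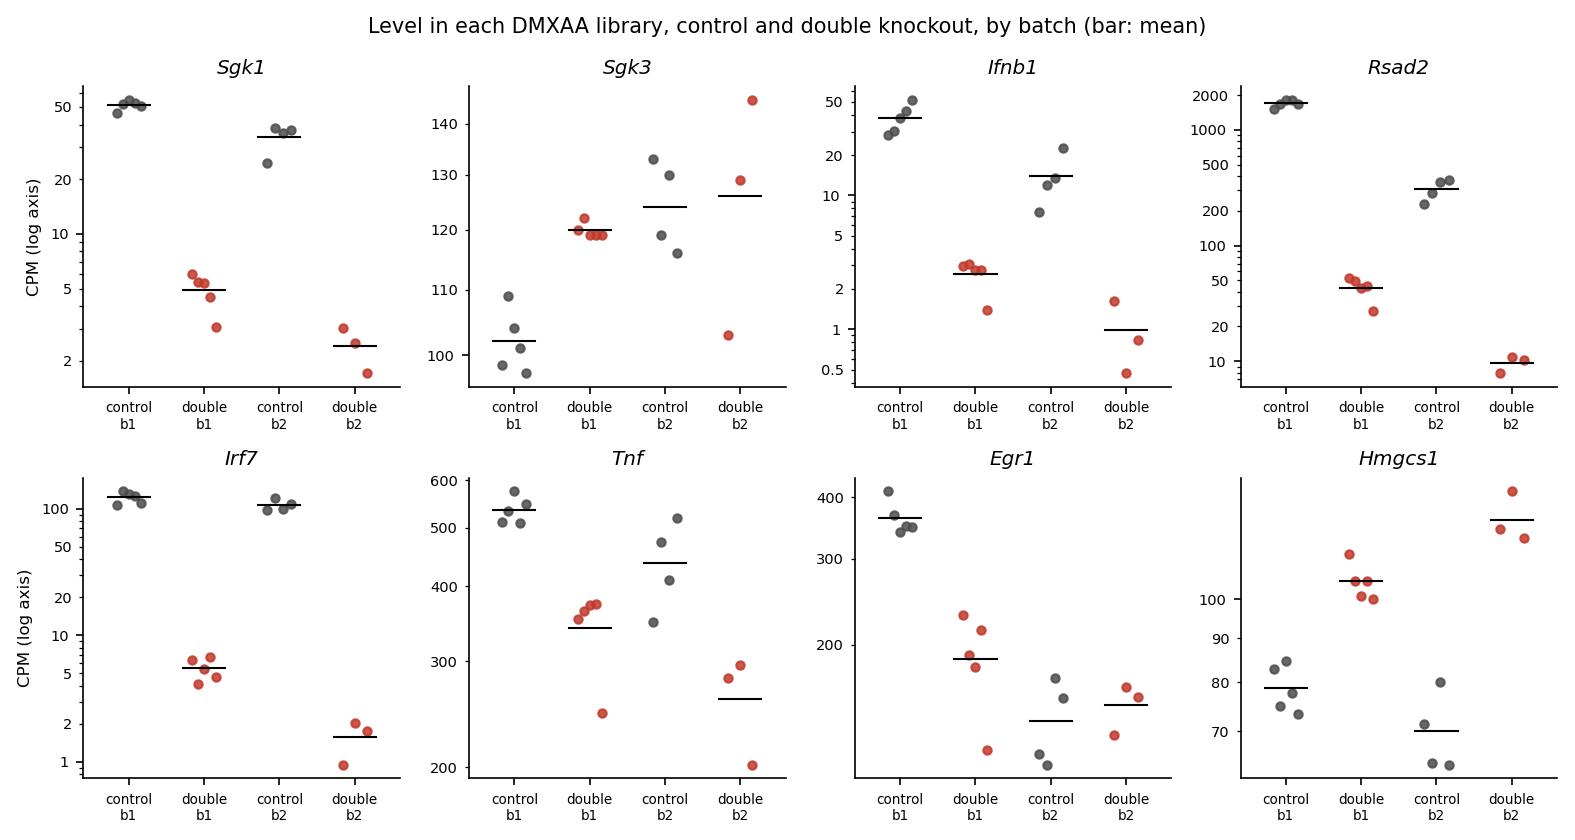
Level of 8 genes in each DMXAA library (CPM, log axis) in control cells (grey) and double knockout cells (red) of b1 and b2, with a bar at the mean. Sgk1, Ifnb1, Rsad2, Irf7 and Tnf are lower in every double knockout library of both batches, Hmgcs1 is higher in every one, and Sgk3 and Egr1 are separated in b1 only.

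In b1, 4468 of 16947 genes tested were called (26.4%), 2457 up (14.5%) and 2011 down (11.9%). The excess of increases in b1 depended on the scaling, with 2250 up and 2273 down with RLE size factors, 2337 and 2408 with DESeq2 and 1779 and 2030 with limma on TPM. In b2 the count was 2134 of 16622 (12.8%), with 1068 up (6.43%) and 1066 down (6.41%). At a size of 2-fold or more, 236 rose and 651 fell in b1, and 231 rose and 268 fell in b2. Large decreases were more numerous than large increases in b1, by a wider margin than in b2. Groups did not overlap for 3219 genes in b1 (19.0%; 9.59% lower and 9.4% higher in the double knockout) and 3944 in b2 (23.7%; 12.6% lower and 11.1% higher).

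Of the 15919 genes tested in both batches, 713 were called up in both (4.48%) and 569 down in both (3.57%), so 1282 had the same direction (8.05%). Another 59 were called in opposite directions (0.371%). The 1282 shared calls are 29.3% of the calls that b1 made among these genes and 60.1% of those of b2. Among the genes called in b1, 77.3% had the same sign of difference in b2, and among those called in b2, 85.8% had the same sign in b1. Across all 15919 genes the differences of the batches had a Pearson correlation of 0.508 and a Spearman correlation of 0.358, and across the 9476 genes of at least 5 CPM in a group of each batch 0.831 and 0.46. Genes are not independent replicates, so these describe likeness only. Among shared calls of 2-fold or more in each batch, 198 were down and 90 were up.

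**Figure D2:**
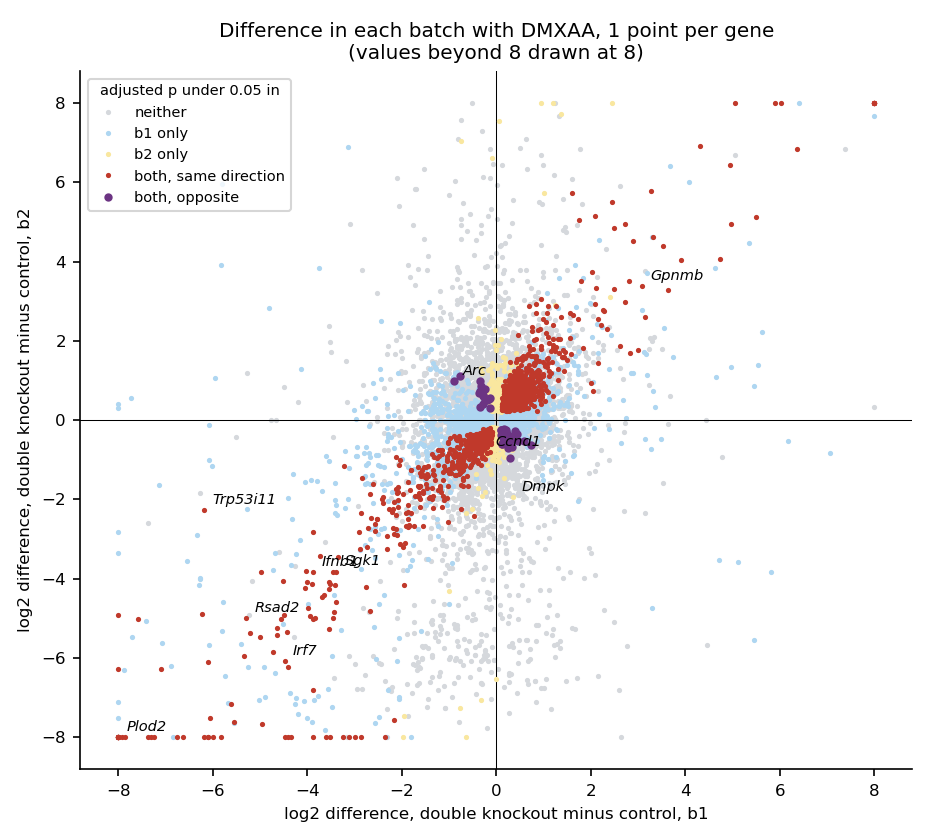
Difference between double knockout and control cells with DMXAA in b1 (horizontal) and b2 (vertical), on the log2 scale, 1 point per gene tested in both batches, coloured by where the gene was called. Of the 1282 genes called in the same direction (red), 198 fell and 90 rose at least 2-fold in each batch. The absolute difference was larger in b1, the batch of smaller spread, for 227 of the 1282 (17.7%). The 59 called in opposite directions (purple) lie near the centre.

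The interferon arm of the response was lower in the double knockout. Ifnb1 (ENSMUSG00000048806.5, GRCm39 chromosome 4, 88440262 to 88441011), the interferon beta gene, was without a single count in the resting libraries. With DMXAA it reached 28.4, 30.3, 37.9, 42.6 and 52 CPM in b1 control cells and 2.99, 3.06, 2.75, 2.76 and 1.4 in the double knockout. In b2 it reached 7.51, 12, 13.5 and 22.7 CPM in control cells and 1.64, 0.47 and 0.833 in the double knockout. The groups were apart in both batches, with the lowest control library of b2 at 7.51 CPM and the highest double knockout library at 1.64. The difference was -3.88 ± 0.21 (SE, adjusted p = 4.89e-12) in b1 and -3.83 ± 1.10 (SE, adjusted p = 0.044) in b2. The b2 call ended on leaving out any 1 of the 7 libraries, with adjusted p from 0.0548 (without K) to 0.174 (without X), including 0.0759 without T, 0.154 without U, 0.0777 without L, 0.0712 without M and 0.0968 without N.

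Of 17 early interferon and IRF3 response genes tested in both batches, 8 were called down in both and none up, beside 3.57% and 4.48% of all genes. In b1, 18 of 19 fell (median -2.38; 11.9% of all genes), and in b2, 8 of 17 fell (median -2.25; 6.41% of all genes) and 9 did not pass. Rsad2 (ENSMUSG00000020641.17, GRCm39 chromosome 12, 26492745 to 26506451), which encodes the antiviral enzyme viperin, had 1508.3, 1677.9, 1811.1, 1825 and 1675 CPM in b1 control cells and 52.2, 49.5, 43.1, 44.6 and 27 in the double knockout. In b2 it had 230, 286, 354 and 367 against 7.9, 10.9 and 10.3. No library of one group reached the range of the other, and the differences were -5.29 ± 0.21 (SE, adjusted p = 1.88e-14) and -4.99 ± 0.35 (SE, adjusted p = 1.25e-08). Its divergent neighbour Cmpk2, a mitochondrial nucleotide kinase, fell from 524 ± 39 to 16.2 ± 1.99 CPM in b1, and in b2 from 152 ± 20.8 to 3.4 ± 1.24 (-5.01 ± 0.16 SE, adjusted p = 2.29e-16; -5.48 ± 0.39 SE, adjusted p = 1.31e-08).

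Other early genes fell less. The chemokine gene Cxcl10 was at 699, 670, 671, 641 and 618 CPM in b1 control cells and 384, 356, 352, 378 and 189 in the double knockout (-0.99 ± 0.14 SE, adjusted p = 1.51e-05). In b2 it was at 231, 314, 300 and 381 against 211, 237 and 133, with overlap (-0.67 ± 0.27 SE, adjusted p = 0.137). Ifit1, an RNA-binding restriction factor, went from 667 ± 54.1 to 235 ± 42.9 CPM in b1 (-1.51 ± 0.15 SE, adjusted p = 1.1e-07), and in b2 from 243 ± 46.2 to 103 ± 10.6, where it missed the threshold (-1.23 ± 0.40 SE, adjusted p = 0.0552) although the groups did not overlap. In 5 alternative analyses of b2, such as fitting the 2 groups alone (adjusted p = 0.00113), Ifit1 passed. Isg15, a ubiquitin-like modifier, fell in b1 (-1.64 ± 0.18 SE, adjusted p = 2.84e-07) and did not pass in b2 (-1.37 ± 0.65 SE, adjusted p = 0.207), where double knockout library X held 3.64 CPM and libraries T and U held 24.7 and 24.8. In b1 the lowest double knockout value of Ifnb1, Rsad2, Cxcl10, Isg15 and Ifit1 was always that of library 5.

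The wider set of interferon-stimulated genes fell almost without exception. All 53 tested members of this list were called down in b1 (median -1.83), with no overlap between groups in any of them. Over all genes 11.9% were called down in b1, and 9.59% had every double knockout library below control. In b2, 45 of 53 were called down (median -1.76; 6.41% of all genes), with 8 not passing and none up. All 45 were therefore called down in both batches, against 3.57% of all genes. Trim30a, a TRIM protein that restrains Toll-like receptor signalling, had 57.2, 78.5, 78.7, 73.4 and 57.6 CPM in b1 control cells and 4.31, 5.74, 5.08, 4.74 and 4.58 in the double knockout. In b2 it had 53.4, 62.8, 56.3 and 59.9 against 1.11, 1.05 and 3.26, far below the control range in both (-3.83 ± 0.18 SE, adjusted p = 9.04e-14; -5.00 ± 0.36 SE, adjusted p = 6.61e-09). Lgals9 (galectin 9), Epsti1 and Ifi44l, all interferon-inducible, differed by -5.62 ± 0.22, -3.94 ± 0.16 and -4.96 ± 0.21 in b1 and by -7.16 ± 0.57, -4.95 ± 0.40 and -7.66 ± 0.62 in b2. Their adjusted p ran up to 4.26e-14 in b1 and 1.11e-07 in b2. Tlr3, the endosomal receptor of double-stranded RNA, fell from 11.4 ± 1.6 to 0.492 ± 0.267 CPM in b1, and in b2 from 8.33 ± 1.33 to 0.256 ± 0.145 (-4.55 ± 0.30 SE, adjusted p = 8.4e-13; -5.01 ± 0.81 SE, adjusted p = 0.000222).

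To show the DNA that lies before these genes, 5 promoters of falling genes and that of Tnf, which changed less, are printed from RefSeq on GRCm38.p6, the 160 bases before each start, 5′ to 3′ on the gene's strand. Capitals mark every match to GAAANNGAAA or its reverse complement TTTCNNTTTC, the core of the interferon-stimulated response element that IRF9 and other IRF factors bind (overlapping matches run together).
Rsad2 (chr12:26456453-26456612, minus strand): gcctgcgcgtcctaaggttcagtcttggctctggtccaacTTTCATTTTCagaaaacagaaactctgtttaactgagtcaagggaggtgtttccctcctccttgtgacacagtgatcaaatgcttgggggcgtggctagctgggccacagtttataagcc
Ifit1 (chr19:34640729-34640888, plus strand): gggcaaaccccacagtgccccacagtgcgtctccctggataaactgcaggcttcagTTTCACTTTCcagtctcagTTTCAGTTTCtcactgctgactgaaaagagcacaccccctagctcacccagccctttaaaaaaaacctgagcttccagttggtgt
Isg15 (chr4:156200819-156200978, minus strand): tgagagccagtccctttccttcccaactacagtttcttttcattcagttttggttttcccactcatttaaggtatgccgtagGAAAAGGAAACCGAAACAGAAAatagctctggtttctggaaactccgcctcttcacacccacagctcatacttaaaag
Lgals9 (chr11:78984925-78985084, minus strand): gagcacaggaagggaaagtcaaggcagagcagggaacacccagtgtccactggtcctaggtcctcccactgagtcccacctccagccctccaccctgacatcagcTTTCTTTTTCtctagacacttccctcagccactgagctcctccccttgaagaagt
Trim30a (chr7:104465194-104465353, minus strand): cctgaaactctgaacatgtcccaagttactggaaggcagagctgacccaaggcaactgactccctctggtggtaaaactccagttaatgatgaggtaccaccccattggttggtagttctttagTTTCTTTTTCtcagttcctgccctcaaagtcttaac
Tnf (chr17:35202008-35202167, minus strand): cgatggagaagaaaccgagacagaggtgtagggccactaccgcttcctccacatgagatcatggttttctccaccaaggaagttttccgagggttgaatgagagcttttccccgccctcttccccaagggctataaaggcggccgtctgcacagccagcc
The matches begin 120 bases before the start in Rsad2, 104 and 85 in Ifit1, 78, 72 and 66 in Isg15, 55 in Lgals9 and 36 in Trim30a, whose second listed start has none. The search covered 250 bases before each start, both strands. At least 1 match was found before 978 of the 32851 starts in the table (2.98%). Among genes that could be matched by symbol, it was found in 342 of 10163 tested in both batches (3.37%), in 54 of 435 called down in both (12.4%), in 13 of 558 called up in both (2.33%) and in 11 of 42 interferon-stimulated genes (26.2%). A match describes the letters only. All 5 falling genes printed have one, so they do not show how often falling genes do, and Ifit1 and Isg15 among them were not called in b2. Cmpk2, Irf7, Ifnb1 and both listed starts of Irf1 have none in this window, and 1 of 6 listed starts of Sgk1 has one.

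Interferon-inducible GTPases, which attack the vacuoles of intracellular pathogens, had the lowest fitted medians of all lists, a rank that holds in b1 but not in b2 once genes at 0 are set at their bounds. In b1, 14 of 15 were called down (median -3.87; 11.9% of all genes), and in b2, 7 of 14 (median -3.32; 6.41% of all genes). Of these 14, 4 had no count in any double knockout library of b2, and with such genes at the bound that a floor of 3 read pairs allows the b2 median is -1.56, above the -2.25 of the early genes and the -1.74 of the interferon-stimulated genes. The same step moved the median of the early genes to -2.27 in b1 and that of DNA sensing genes to -0.06 in b2. The 7 called in b2 were also called in b1. Tgtp2 fell from 6.15 ± 1.16 to 0.00621 ± 0.0139 CPM in b1, and in b2 from 1.49 ± 0.507 to 0.0174 ± 0.0302, and Gbp9 from 4.17 ± 0.91 to 0.0625 ± 0.05 and from 4.42 ± 0.984 to 0.0603 ± 0.105. Members of the Gbp, Ifit and H2 families resemble each other closely, and reads shared among them could not be assigned by these counts.

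Among the genes that carry the interferon signal, Stat2 and Irf9, partners in its transcription complex, fell in both batches. Stat2 differed by -1.24 ± 0.10 (SE, adjusted p = 2.01e-10) in b1 and -0.75 ± 0.12 (SE, adjusted p = 0.000276) in b2, and Irf9 by -1.36 ± 0.08 (SE, adjusted p = 1.74e-15) and -1.72 ± 0.13 (SE, adjusted p = 6.97e-09). Neither gene overlapped between groups in either batch. The receptor and JAK-STAT list as a whole was mixed, with 1 of 16 genes up and 3 down in both batches, beside 4.48% and 3.57% of all genes. Its medians were -0.05 and 0.00. The gene that rose was Ptpn1, a phosphatase of JAK kinases (0.29 ± 0.05 SE, adjusted p = 4e-05; 0.50 ± 0.12 SE, adjusted p = 0.00893).

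Irf7 (ENSMUSG00000025498.16, GRCm39 chromosome 7, 140842619 to 140846394), the IRF factor that amplifies interferon production, was among the most reduced regulators. It had 107, 138, 131, 126 and 111 CPM in b1 control cells against 6.39, 4.12, 5.46, 6.8 and 4.72, and 98.3, 122, 100 and 109 in b2 against 0.952, 2.03 and 1.77. The groups were far apart in each batch (-4.48 ± 0.23 SE, adjusted p = 2.19e-12; -6.07 ± 0.25 SE, adjusted p = 2.31e-12). Irf1 fell from 124 ± 9.13 to 17.3 ± 1.96 CPM in b1, and in b2 from 25.4 ± 1.93 to 9.15 ± 0.995 (-2.85 ± 0.08 SE, adjusted p = 4.39e-24; -1.47 ± 0.25 SE, adjusted p = 0.000278). Irf3, which acts directly under STING, was not called in either batch (0.14 ± 0.07 SE, adjusted p = 0.121; 0.32 ± 0.16 SE, adjusted p = 0.244). Of 11 IRF genes tested, 4 fell and 2 rose in both batches (3.57% and 4.48% of all genes), the latter being the IRF2-binding proteins Irf2bp1 and Irf2bpl.

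The sensing machinery itself was lower in part. Of 28 genes of STING and DNA sensing, 10 were called down in both batches and none up, beside 3.57% and 4.48% of all genes, with medians of -0.19 and -0.25. Those down were Cgas, Sting1, Ikbke and Samhd1, and Ifi203, Ifi204, Ifi207, Ifi209, Ifi211 and Mndal of the p200 family of DNA-binding proteins. Trim56 was called in opposite directions, and Irf3, Traf3, Traf6 and Tank were not called in either batch. Cgas, the enzyme that makes the STING ligand, was at 167, 170, 175, 185 and 168 CPM in b1 control cells and 93.5, 93.9, 98.9, 103 and 103 in the double knockout (-0.81 ± 0.05 SE, adjusted p = 4.4e-15). In b2 it was at 150, 161, 157 and 165 against 83.6, 84.9 and 82.3 (-0.92 ± 0.08 SE, adjusted p = 3.93e-08). The groups were far apart relative to their spread in both batches.

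Sting1, which encodes the receptor of DMXAA, held 33.2, 36.2, 38.1, 32.4 and 33.4 CPM in b1 control cells and 20.6, 18.9, 18.6, 21.7 and 17.6 in the double knockout (-0.83 ± 0.07 SE, adjusted p = 1.38e-11). It held 18.3, 22.8, 22.9 and 20.2 against 14, 16.4 and 14 in b2 (-0.51 ± 0.13 SE, adjusted p = 0.0108), a call that ended without library X (adjusted p = 0.0547). Every double knockout library was under every control library of its batch. Tbk1 differed by -0.13 ± 0.05 (SE, adjusted p = 0.0426) in b1 with overlapping groups, a call that ended in 11 of the alternative analyses (adjusted p from 0.0594 to 0.232), including without libraries 1, 2, 3 or 4 of the double knockout (0.072, 0.0846, 0.0842 and 0.0627) and 2, 3 or 4 of the control cells (0.109, 0.0902 and 0.113). In b2 Tbk1 did not pass (0.17 ± 0.11 SE, adjusted p = 0.368). Ifi203 and Ifi204, DNA-binding proteins of the p200 family, differed by -2.17 ± 0.11 and -2.21 ± 0.15 in b1 and by -2.07 ± 0.16 and -2.31 ± 0.20 in b2, and were called in both. Their relative Ifi209 was low throughout, with 0.694 ± 0.222 and 0.673 ± 0.247 CPM in the controls, and was at 0 in the double knockout of b2 (at least 4.13-fold lower). Members of this family resemble each other closely, so shared reads could not be assigned.

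Antigen presentation genes, many of them interferon-inducible, had 17 of 22 members down in both batches and none up, beside 3.57% and 4.48% of all genes (medians -0.63 and -0.88). Tap1, the peptide transporter of the class I pathway, fell from 50.9 ± 1.29 to 16.5 ± 0.653 CPM in b1, and in b2 from 53.3 ± 8.47 to 16.9 ± 1.17 (-1.62 ± 0.08 SE, adjusted p = 1.14e-16; -1.66 ± 0.12 SE, adjusted p = 6.56e-09). The nonclassical class I genes H2-T24 and H2-T23 differed by -3.51 ± 0.20 and -1.62 ± 0.14 in b1 and by -4.14 ± 0.22 and -2.19 ± 0.19 in b2 (adjusted p at most 5.34e-08), subject to shared reads within the H2 family.

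Much of this difference was present before stimulation. In b2, 503 genes (3.03%) were called between resting double knockout and resting control cells, 192 up (1.16%) and 311 down (1.87%). Of the 569 genes called down with DMXAA in both batches, 249 were also called down at rest (43.8%) and 551 had the same sign there (96.8%). The b2 libraries with DMXAA contributed to the choice of these genes, and the resting libraries did not. Of the 53 interferon-stimulated genes, 44 were called down at rest (median -1.67). Irf7 was at 82.1 CPM in resting control cells and 4.04 in resting double knockout cells (adjusted p = 1.18e-10). Rsad2 was at 3.31 and 0.0663 CPM (adjusted p = 1.55e-06).

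Whether the difference with DMXAA was larger than that at rest was tested in b2 as a contrast of both differences. It passed for 130 of 16622 genes (0.782%). Among the 569 shared decreases, 19 were larger with DMXAA and 7 were smaller, and among the 713 shared increases, 56 were larger and 0 smaller. The b2 libraries with DMXAA entered both the choice of these genes and the contrast, which favours larger over smaller. The balance of these counts therefore cannot show that DMXAA widened the differences. Irf7 and Cgas fell further below control with DMXAA than at rest, by a further -1.73 ± 0.29 (adjusted p = 0.0052) and -0.54 ± 0.11 (adjusted p = 0.0214). Of the 53 interferon-stimulated genes, 4 passed as higher relative to control with DMXAA than at rest, and 2 as lower. Over all genes 0.782% passed in either direction. For Rsad2 the contrast was 0.75 ± 0.75 (adjusted p = 0.932), which did not pass the threshold. A contrast that misses the threshold does not show that the differences were equal.

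**Figure D3:**
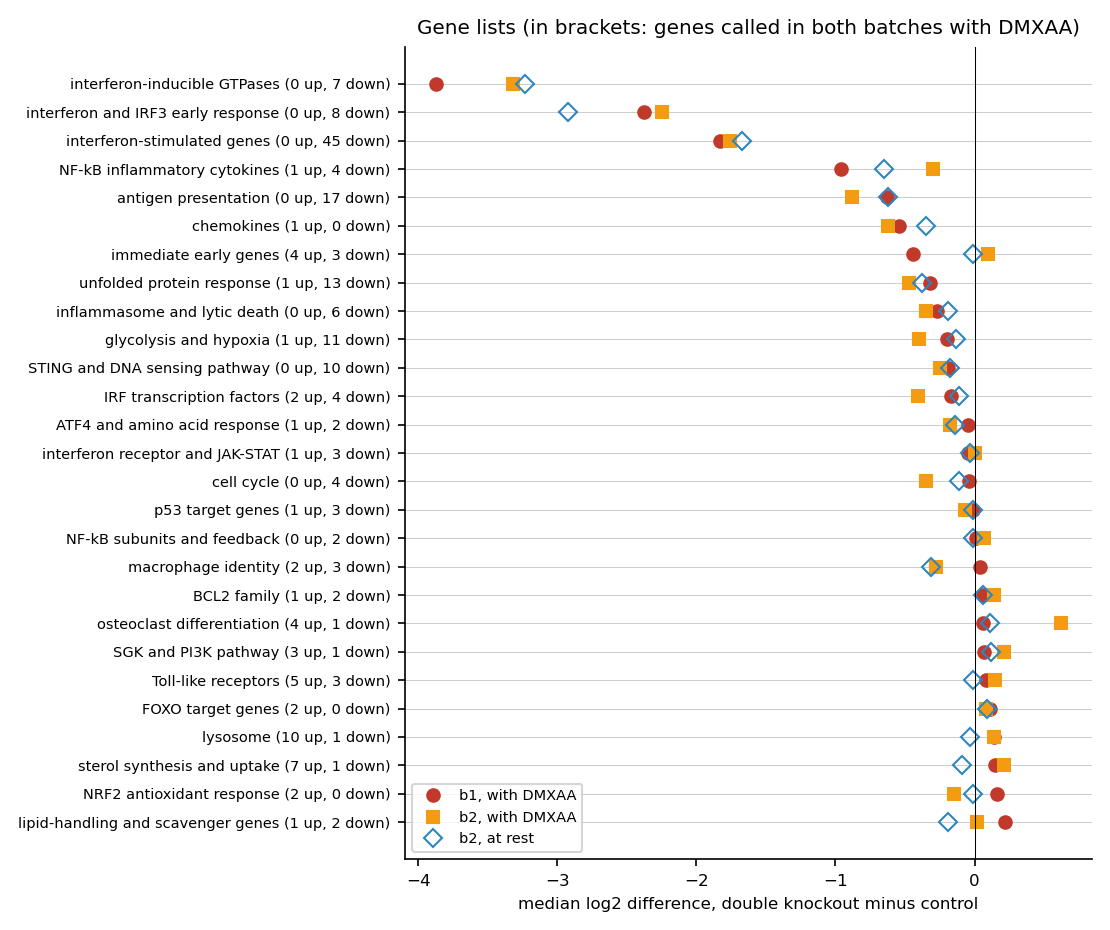
Median difference between double knockout and control cells (log2 scale) of 27 gene lists with DMXAA in b1 (circles) and b2 (squares) and at rest in b2 (open diamonds), with the number of genes called in both batches in brackets. The 3 interferon lists have fitted medians from -3.87 to -1.67 in all 3 comparisons, and most other lists lie within 0.5 of 0.

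The NF-kB arm was less affected and mixed. Of 17 inflammatory cytokine genes tested in both batches, 4 fell and 1 rose in both, beside 3.57% and 4.48% of all genes (medians -0.96 and -0.30). Tnf, which encodes tumour necrosis factor, was at 511, 532, 575, 509 and 548 CPM in b1 control cells and 353, 364, 372, 373 and 246 in the double knockout (-0.65 ± 0.09 SE, adjusted p = 6.09e-06). The b2 values were 348, 473, 410 and 519 against 281, 296 and 202 (-0.75 ± 0.21 SE, adjusted p = 0.0221). Groups did not overlap in either batch, but the b2 call ended without library X (adjusted p = 0.151), L (0.0576) or N (0.0681). Resting levels of Tnf were 38.7 CPM in control and 33.3 in double knockout cells of b2 (adjusted p = 0.973).

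Il1rn, the interleukin 1 receptor antagonist, differed by -2.68 ± 0.12 (SE, adjusted p = 1.9e-17) in b1 and -1.86 ± 0.49 (SE, adjusted p = 0.0138) in b2, the latter ending without library X (adjusted p = 0.0801). Ptgs2, the inducible cyclooxygenase, fell from 5.76 ± 0.846 to 2.81 ± 0.958 CPM in b1, and in b2 from 7.24 ± 1.6 to 2.28 ± 0.669 (-1.03 ± 0.18 SE, adjusted p = 3.58e-05; -1.67 ± 0.32 SE, adjusted p = 0.00114). Clec4e, the receptor Mincle, moved the other way, with 29.5, 28.7, 31.4, 31.6 and 31.9 CPM in b1 control cells and 55.2, 58.6, 56.5, 55.4 and 38.6 in the double knockout, and 68.4, 69.6, 67 and 71.6 against 107, 92.9 and 102 in b2 (0.79 ± 0.08 SE, adjusted p = 5.49e-09; 0.54 ± 0.10 SE, adjusted p = 0.000742). It was the single member of the list that rose in both batches. Il18, a cytokine processed by inflammasomes, differed by -1.31 ± 0.13 (SE, adjusted p = 2.62e-09) and -0.93 ± 0.22 (SE, adjusted p = 0.00619). Il1b had too few counts to be tested.

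The feedback inhibitor genes Tnfaip3 (A20) and Nfkbiz (IkB-zeta) differed by -0.68 ± 0.08 and -0.59 ± 0.10 in b1 (adjusted p = 1.4e-07 and 3.84e-05) and by -0.79 ± 0.19 and -0.80 ± 0.16 in b2 (adjusted p = 0.0072 and 0.00163). They were the 2 of 22 NF-kB subunit and feedback genes called in the same direction in both batches, beside 3.57% of all genes called down in both. The b2 call of Tnfaip3 ended with limma on TPM (adjusted p = 0.0674). Of 15 chemokine genes tested in b1, 3 rose and 6 fell (median -0.54), beside 14.5% and 11.9% of all genes. Of 12 tested in b2, 1 rose and 0 fell (median -0.62), beside 6.43% and 6.41% of all genes. Ccl9 alone was called in both batches, against 4.48% of all genes called up in both. It rose (0.37 ± 0.05 SE, adjusted p = 2.08e-06; 0.55 ± 0.11 SE, adjusted p = 0.00237). Its level went from 260 ± 19.3 to 335 ± 16.2 CPM in b1, and in b2 from 163 ± 15.4 to 238 ± 31.3.

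Immediate early genes, the transcripts that follow kinase signalling within minutes, split between the batches. In b1, 17 of 34 fell and 9 rose (median -0.44; 11.9% and 14.5% of all genes), while in b2, 5 fell and 5 rose (median 0.10; 6.41% and 6.43% of all genes), and the difference itself differed between batches for 9 of them (7.27% of all genes). Egr1 was at 412, 368, 340, 349 and 348 CPM in b1 control cells and 230, 191, 180, 215 and 122 in the double knockout (-0.96 ± 0.12 SE, adjusted p = 2.31e-06). Its b2 levels were 120, 114, 171 and 156 against 131, 164 and 157, with overlap (0.10 ± 0.14 SE, adjusted p = 0.738). The control cells of b2 stood near the double knockout level of b1, and the test of the difference between batches gave -1.05 ± 0.19 (SE, adjusted p = 0.000174).

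Across both batches 4 of these 34 genes rose and 3 fell, beside 4.48% and 3.57% of all genes. Egr3 rose from 10.1 ± 1.16 to 17 ± 5.23 CPM in b1, where the groups overlapped, and from 5.65 ± 1.34 to 28.6 ± 2.74 in b2, where they did not (0.75 ± 0.17 SE, adjusted p = 0.00134; 2.34 ± 0.19 SE, adjusted p = 2.98e-08). Klf6, a zinc finger factor, rose by 0.75 ± 0.07 and 0.79 ± 0.08, and Spry2, an inhibitor of receptor tyrosine kinase signalling, by 1.39 ± 0.14 and 1.59 ± 0.31 (adjusted p at most 0.00127). Dusp4, a phosphatase of nuclear MAP kinases, fell from 107 ± 12.1 to 56.2 ± 7.22 CPM in b1, and in b2 from 77.5 ± 7.17 to 37.2 ± 3.09 (-0.93 ± 0.11 SE, adjusted p = 5.24e-07; -1.06 ± 0.14 SE, adjusted p = 1.77e-05). Atf3, a stress-induced transcription factor, and Ier3, an immediate early gene linked to survival, differed by -0.97 ± 0.14 and -0.83 ± 0.10 in b1 and by -0.45 ± 0.14 and -1.14 ± 0.30 in b2, with adjusted p of 0.037 and 0.0152 in b2.

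Some of the largest shared differences lay outside the interferon lists and had one group at or near 0. Maoa (ENSMUSG00000025037.7, GRCm39 chromosome X, 16485937 to 16554057), monoamine oxidase A, had no count in any of the 9 control libraries with DMXAA. It was at 28.8, 30.8, 31.1, 25.6 and 31.5 CPM in the double knockout of b1 and 23.7, 25 and 25.2 CPM in that of b2. Against a floor of 3 read pairs (12 counts) per library, this is at least 178-fold higher in b1 and at least 145-fold in b2. The single knockouts, which are set against the same control libraries, had it too, at 28.8 ± 2.89 CPM in the SGK3 knockout of b1 (n = 5) and 27.6 ± 5.48 in the SGK1 knockout of b2 (n = 4).

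Slc9b2 (ENSMUSG00000037994.15, GRCm39 chromosome 3, 135013461 to 135051148), a sodium/proton exchanger, was at 0.113 CPM in control cells and 7.74, 6.6, 7.42, 6.96 and 8.74 in the double knockout of b1, and at 0.0342 against 8.88, 12.5 and 14.3 in b2. Unlike Maoa, it stood near the control level in both single knockouts (0.132 and 0.0427 CPM). Pax3, a developmental transcription factor, rose from 0.462 to 7.07 ± 0.91 CPM in b1, and in b2 from 0.443 to 7.32 ± 2.07 (3.92 ± 0.32 SE, adjusted p = 1.06e-10; 4.04 ± 0.29 SE, adjusted p = 5.85e-09). Agap2, a GTPase-activating protein that binds AKT, rose by 3.54 ± 0.31 and 4.40 ± 0.27, and was high in the SGK1 knockout (17.5 CPM) and not in the SGK3 knockout (0.314 CPM).

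Gpnmb, a glycoprotein of lysosomes and melanosomes, was at 2.17, 1.32, 1.64, 1.5 and 1.85 CPM in b1 control cells and 14.1, 16.7, 16.7, 13.2 and 12.1 in the double knockout, and at 2.45, 2.98, 2.45 and 2.47 against 30.9, 26.6 and 23.3 in b2 (3.09 ± 0.15 SE, adjusted p = 9.3e-16; 3.38 ± 0.27 SE, adjusted p = 2.55e-08). Pdcd1, which encodes the checkpoint receptor PD-1, was at 16.7, 16.8, 19.7, 17.7 and 17.1 against 90.9, 87.4, 88, 89.9 and 66.9 CPM in b1 and at 9.55, 8.1, 5.86 and 8.57 against 59.6, 61.6 and 43.3 in b2 (2.27 ± 0.08 SE, adjusted p = 1.91e-19; 2.77 ± 0.25 SE, adjusted p = 1.24e-07). Its level at rest in b2 was 1.38 CPM in control and 6.55 in double knockout cells. Among genes of at least 5 CPM in a group of each batch, the other largest shared increases were those of Pde8a, Angptl2, Cd48, Gja1, Sort1 and Capn1, with differences of 2.72, 2.72, 3.14, 2.49, 2.28 and 2.16 in b1 and 2.98, 4.96, 2.60, 3.32, 2.75 and 2.55 in b2. They encode a cyclic AMP phosphodiesterase, an angiopoietin-like protein, a SLAM family surface protein, the gap junction protein connexin 43, the sorting receptor sortilin and a calcium-dependent protease.

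On the falling side, Plod2 (ENSMUSG00000032374.15, GRCm39 chromosome 9, 92424276 to 92490481), a collagen lysyl hydroxylase, was at 21.2, 24.6, 23.1, 26.4 and 24.9 CPM in control cells of b1 and 7.47, 9.35, 9.36 and 10.1 in those of b2, and had no count in any of the 8 double knockout libraries. It was at least 144-fold lower in b1 and at least 55.7-fold lower in b2, and had no count in either single knockout. Adgrl2, an adhesion receptor, was likewise at 9.77 and 7.37 CPM in control cells and at 0 in every double knockout library (at least 58.4-fold and 45.2-fold lower). Crlf2 (ENSMUSG00000033467.13, GRCm39 chromosome 5, 109702575 to 109706859), the receptor of the cytokine TSLP, was at 7.34, 5.79, 4.64, 6.94 and 5.61 CPM in b1 and 17.3, 21.4, 18 and 20.4 in b2 control cells, and again at 0 in all 8 (at least 36.3-fold and 118-fold lower). Here the SGK3 knockout kept the control level (7.12 ± 1.03 CPM), and the SGK1 knockout had 1.78 ± 1.29 CPM.

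Bdh1, a ketone body dehydrogenase, showed the same order, with mean levels in b1 of 10.8 CPM (control), 9.49 (SGK3 knockout) and 0.0218 (double knockout). In b2 the values were 7.78 CPM in control cells, 1.09 in the SGK1 knockout and 0 in the double knockout, at least 47.8-fold lower than control. Nid2, a basement membrane protein, and Btg3, an antiproliferative factor, were at 11.4 and 7.49 CPM in b1 control cells and 0.0424 and 0.0445 in the double knockout. In b2 both had no count in the double knockout (at least 53.7-fold and 30.9-fold lower). Sdc3, the heparan sulfate proteoglycan syndecan 3, fell from 38.1 ± 4.9 to 0.261 ± 0.174 CPM in b1, and in b2 from 39.8 ± 8.06 to 0.126 ± 0.127. Nsd1, a histone H3 lysine methyltransferase, fell from 11 ± 1.26 to 0.269 ± 0.134 CPM and from 11.1 ± 1.34 to 0.183 ± 0.163, with 0.487 and 0.351 CPM in the single knockouts.

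**Figure D4:**
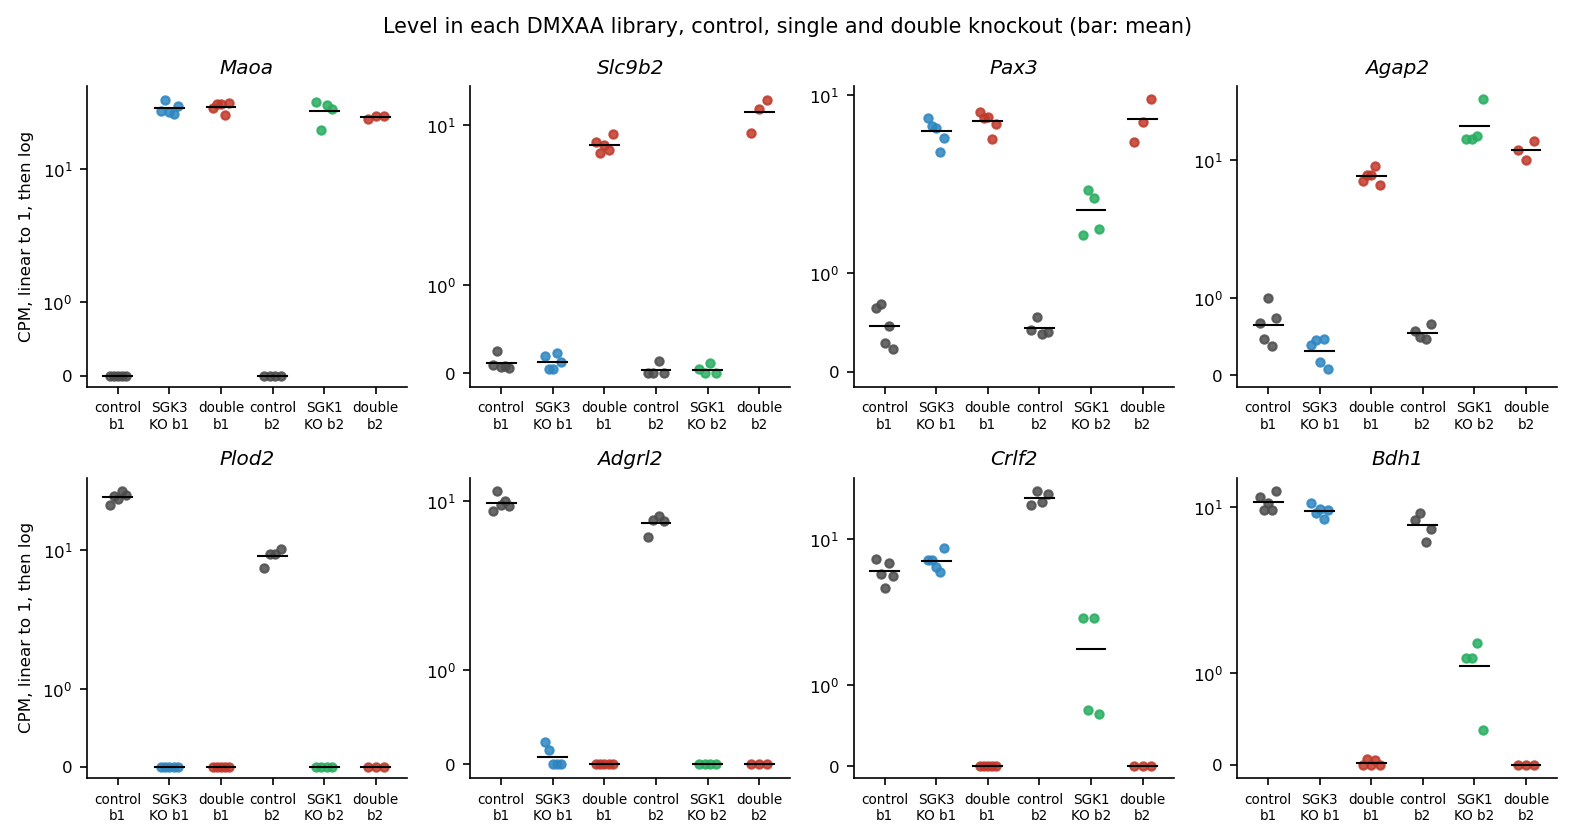
Level of 8 genes in each DMXAA library (CPM, linear up to 1 and logarithmic above) in control cells (grey), the SGK3 knockout (blue), the SGK1 knockout (green) and the double knockout (red), with a bar at the mean. Maoa is up and Plod2 and Adgrl2 are down in all 3 edited lines, Slc9b2 is high in the double knockout and near the control level in both single knockouts, and Crlf2 and Bdh1 keep the control level in the SGK3 knockout.

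Genes of the unfolded protein response fell together, with 13 of 22 down and 1 up in both batches, beside 3.57% and 4.48% of all genes (medians -0.32 and -0.47). Pdia6, a protein disulfide isomerase of the endoplasmic reticulum, was at 661, 692, 740, 683 and 700 CPM in b1 control cells and 473, 538, 520, 530 and 496 in the double knockout. Levels in b2 were 574, 673, 558 and 603 against 379, 338 and 271 (-0.44 ± 0.05 SE, adjusted p = 4.69e-09; -0.87 ± 0.10 SE, adjusted p = 2.65e-06), with no overlap in either. The member that rose was Xbp1, a transcription factor of the response (0.42 ± 0.05 SE, adjusted p = 2.65e-08; 0.31 ± 0.09 SE, adjusted p = 0.0207). Sdf2l1, a cofactor of the chaperone BiP, differed by -0.62 ± 0.05 (SE, adjusted p = 6.84e-11) and -0.84 ± 0.11 (SE, adjusted p = 2.15e-05). In resting b2 cells 8 of the 22 genes were called down, beside 1.87% of all genes.

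Genes of sterol synthesis and uptake had 7 of 30 members up and 1 down in both batches, beside 4.48% and 3.57% of all genes (medians 0.15 and 0.21). Hmgcs1, which makes the precursor of mevalonate, was at 82.9, 74.9, 84.6, 77.6 and 73.4 CPM in b1 control cells and 113, 105, 101, 105 and 100 in the double knockout, and at 71.5, 64.3, 80.1 and 64 against 121, 134 and 118 in b2 (0.41 ± 0.06 SE, adjusted p = 2.28e-06; 0.83 ± 0.09 SE, adjusted p = 2.65e-06). At rest in b2 it was at 127 and 132 CPM, and the difference with DMXAA exceeded that at rest by 0.77 ± 0.14 (adjusted p = 0.00798). Sqle, a later enzyme of the pathway, rose by 0.32 ± 0.05 in b1 and by 0.34 ± 0.07 in b2 (adjusted p at most 0.00255). The gene that fell was Scd1, a fatty acid desaturase (-0.45 ± 0.07 SE, adjusted p = 3.05e-05; -0.54 ± 0.13 SE, adjusted p = 0.00756).

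Of 27 glycolysis and hypoxia genes, 11 fell and 1 rose in both batches, beside 3.57% and 4.48% of all genes (medians -0.20 and -0.40). Pfkl, the liver-type phosphofructokinase that commits glucose to glycolysis, fell from 154 ± 11.2 to 99.8 ± 5.59 CPM in b1, and in b2 from 122 ± 5.96 to 79.4 ± 5.83 (-0.63 ± 0.06 SE, adjusted p = 2.73e-10; -0.62 ± 0.08 SE, adjusted p = 1.04e-05). The member that rose was Ndrg1, and Plod2 was among those that fell. Psat1, an enzyme of serine synthesis under ATF4, differed by -0.15 ± 0.04 and -0.43 ± 0.06 (adjusted p = 0.0038 and 6.72e-05). It was 1 of 2 ATF4 and amino acid response genes that fell in both batches out of 26, beside 3.57% of all genes. The other was Slc3a2, the heavy chain of amino acid transporters (-0.46 ± 0.07 SE, adjusted p = 2.54e-06; -0.46 ± 0.14 SE, adjusted p = 0.0361), and its partner Slc7a11, the cystine carrier, rose (0.38 ± 0.08 SE, adjusted p = 0.000598; 0.67 ± 0.18 SE, adjusted p = 0.0187). Vegfa, an angiogenic growth factor of the hypoxia list, differed by -0.59 ± 0.06 (SE, adjusted p = 1.03e-08) and -0.51 ± 0.16 (SE, adjusted p = 0.0452).

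Lysosome genes rose more often than they fell, with 10 of 35 up and 1 down in both batches, beside 4.48% and 3.57% of all genes (medians 0.14 in each). Sgsh, an enzyme of heparan sulfate breakdown, was at 19.5, 17.9, 15.7, 16.2 and 17.3 CPM in b1 control cells and 34.6, 35.6, 32.9, 31.5 and 27 in the double knockout, and at 23.7, 24, 23.9 and 25 against 46.6, 51.3 and 61.1 in b2 (0.90 ± 0.07 SE, adjusted p = 8.11e-12; 1.13 ± 0.11 SE, adjusted p = 3.87e-07). Atp6v0d2, a proton pump subunit, rose from 1.69 ± 0.333 to 7.25 ± 0.644 CPM in b1, and in b2 from 0.305 ± 0.119 to 10.8 ± 1.73. The gene that fell was Ctsl, the protease cathepsin L (-0.71 ± 0.05 SE, adjusted p = 7.33e-14; -1.50 ± 0.17 SE, adjusted p = 2.65e-06).

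Cell cycle genes were called down more often in b2 than in b1. In b1, 11 of 36 fell and 2 rose (median -0.04), and in b2, 18 fell and none rose (median -0.35), with 4 down in both and 17 past the test of the difference between batches. Over all genes 11.9% fell and 14.5% rose in b1, 6.41% fell and 6.43% rose in b2, 3.57% fell in both and 7.27% passed the test of the difference. Ccnd1, cyclin D1, was at 286, 302, 298, 268 and 247 CPM in b1 control cells and 247, 243, 242, 230 and 260 in the double knockout, with overlap (-0.20 ± 0.06 SE, adjusted p = 0.00705). The b2 values were 523, 533, 526 and 493 against 287, 284 and 313 (-0.82 ± 0.08 SE, adjusted p = 1.74e-07), and the resting means were 704 and 641 CPM. Ccnb1, cyclin B1, differed by -0.24 ± 0.04 and -0.32 ± 0.08 (adjusted p = 1.03e-05 and 0.00766), and its b2 call ended with limma on TPM (0.137).

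Genes of cell death differed in both directions. Of 15 inflammasome and lytic death genes, 6 fell and none rose in both batches (3.57% and 4.48% of all genes), among them the necroptosis genes Mlkl (-1.05 ± 0.09 SE, adjusted p = 2.3e-11; -0.99 ± 0.19 SE, adjusted p = 0.000961) and Ripk3 (-0.40 ± 0.06 SE, adjusted p = 1.72e-06; -0.52 ± 0.12 SE, adjusted p = 0.00487). Bbc3, which encodes the apoptosis inducer PUMA and is a readout of FOXO and p53, was not called in either batch (-0.07 ± 0.05 SE, adjusted p = 0.398; -0.24 ± 0.20 SE, adjusted p = 0.544). Of 15 BCL2 family genes, 1 rose and 2 fell in both batches (medians 0.06 and 0.14), beside 4.48% and 3.57% of all genes. Mcl1, an inhibitor of apoptosis, rose by 0.23 ± 0.03 and 0.38 ± 0.05, and its antagonist Bak1 differed by -0.12 ± 0.05 and -0.41 ± 0.08 (adjusted p = 0.0488 and 0.00134). Of 24 p53 targets tested in both batches, 1 rose and 3 fell in both (medians -0.01 and -0.07), beside 4.48% and 3.57% of all genes. The one that rose was Xpc (0.25 ± 0.08 SE, adjusted p = 0.0173; 0.65 ± 0.19 SE, adjusted p = 0.0304). The p53 targets Pmaip1 and Cdkn1a differed by -0.34 ± 0.07 and -0.24 ± 0.05 in b1 and by -0.41 ± 0.09 and -0.58 ± 0.13 in b2 (adjusted p at most 0.00468). The b2 call of Pmaip1 ended with limma on TPM (adjusted p = 0.0589). Of 26 FOXO targets, 2 rose and none fell in both batches, near the shares of all genes (4.48% and 3.57%). They were S1pr1 (2.08 ± 0.31 SE, adjusted p = 4.24e-06; 2.94 ± 0.38 SE, adjusted p = 1.41e-05) and Pink1 (0.63 ± 0.11 SE, adjusted p = 6.62e-05; 1.04 ± 0.25 SE, adjusted p = 0.00807).

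Macrophage surface genes moved in both directions. Of 18 identity genes tested in both batches, 2 rose and 3 fell in both (4.48% and 3.57% of all genes). In b1, 4 of 18 rose and 3 fell (median 0.04), beside 14.5% and 11.9% of all genes. In b2, 2 of 19 rose and 9 fell (median -0.28), beside 6.43% and 6.41%. The difference itself differed between batches for 8 of the 18 (7.27% of all genes). Fcgr1, the high-affinity receptor of IgG and itself interferon-inducible, was at 62.4, 65.5, 70.1, 67.4 and 68.5 CPM in b1 control cells and 22.3, 23.9, 23.9, 22.7 and 21.6 in the double knockout, and at 69.8, 86.2, 69.1 and 79.5 against 20.3, 20.5 and 23.3 in b2 (-1.55 ± 0.06 SE, adjusted p = 1.64e-20; -1.83 ± 0.15 SE, adjusted p = 1.86e-08). Adgre1, the surface protein F4/80, differed by -1.02 ± 0.11 (SE, adjusted p = 7.11e-09) and -0.55 ± 0.16 (SE, adjusted p = 0.0237). Fcgr3, a low-affinity IgG receptor, rose by 1.06 ± 0.13 and 2.19 ± 0.20, and Mpeg1, perforin 2, by 0.48 ± 0.12 and 1.22 ± 0.07 (adjusted p = 0.00466 and 1.4e-10). In b1 the groups of Mpeg1 overlapped, since library 5 of the double knockout held 284 CPM and the other 4 held 540 to 589, and the b1 call ended when the 2 groups were fitted alone (adjusted p = 0.0896), with the replicate block (0.166) and with the block and the length trend removed (0.231).

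RAW264.7 cells can become osteoclasts, and 4 of 15 genes of that programme rose in both batches, with 1 falling (4.48% and 3.57% of all genes). Acp5, tartrate-resistant acid phosphatase, rose from 0.886 ± 0.271 to 4.83 ± 0.761 CPM in b1, and in b2 from 0.166 ± 0.0708 to 7.56 ± 2.33 (2.44 ± 0.25 SE, adjusted p = 3.64e-09; 5.50 ± 0.62 SE, adjusted p = 2.55e-06). Dcstamp, which is needed for cell fusion, rose by 0.92 ± 0.12 and 0.64 ± 0.14, and Car2, a carbonic anhydrase, fell (-1.45 ± 0.09 SE, adjusted p = 7e-12; -1.15 ± 0.09 SE, adjusted p = 1.84e-08). The SGK3 knockout of b1 had 32.2 CPM of Car2 and the SGK1 knockout of b2 had 264, beside 175 and 243 in the control cells. Msr1, a scavenger receptor, differed by -0.28 ± 0.07 and -0.71 ± 0.08 (adjusted p = 0.00261 and 1.77e-06).

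Toll-like receptor genes moved both ways, with 5 of 20 up and 3 down in both batches, beside 4.48% and 3.57% of all genes. Ticam2, an adaptor of Toll-like receptor 4, rose from 15.4 ± 2.07 to 22.2 ± 1.96 CPM in b1, and in b2 from 17.9 ± 0.899 to 23.1 ± 1.91 (0.52 ± 0.08 SE, adjusted p = 2.54e-06; 0.37 ± 0.12 SE, adjusted p = 0.0429). Cd180, a Toll-like receptor 4 homologue, differed by 0.49 ± 0.06 (SE, adjusted p = 2.45e-08) and 0.33 ± 0.10 (SE, adjusted p = 0.0346), and Tlr13, a sensor of bacterial RNA, by 0.46 ± 0.10 (SE, adjusted p = 0.000566) and 0.82 ± 0.13 (SE, adjusted p = 0.000122). Irak3, which restrains Toll-like receptor signalling, and the adaptor gene Myd88 fell with Tlr3 (Irak3 -0.73 ± 0.17 SE, adjusted p = 0.00171; -0.87 ± 0.23 SE, adjusted p = 0.0128; Myd88 -0.18 ± 0.05 SE, adjusted p = 0.00443; -0.35 ± 0.11 SE, adjusted p = 0.0451). The genes of the NRF2 antioxidant response had 2 of 20 up in both batches, Slc7a11 and the thioredoxin reductase gene Txnrd1 (0.15 ± 0.05 SE, adjusted p = 0.0168; 0.26 ± 0.08 SE, adjusted p = 0.0363), beside 4.48% of all genes. In b1 12 rose and in b2 2 (14.5% and 6.43% of all genes), and 9 differed between batches (7.27%).

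What did not agree between the batches was tested directly in a fit of both. The difference between double knockout and control cells differed between batches for 1332 of 18315 genes (7.27%), being higher in b1 for 802 and lower for 530. This count was 850 without library X and 2176 without library T, and with limma on TPM the direction turned, with 358 higher in b1 and 580 lower. The fit of both used 1 spread per gene for the 2 batches (common coefficient 0.317, against 0.159 in b1 and 0.473 in b2). With a variance of its own for each batch the count was 987, with 658 higher in b1 and 329 lower. With the shared spread, which is under that of b2 alone, the test called 508 of the 793 genes called in b2 only, and 337 of the 3039 called in b1 only. Most b1 calls that b2 did not make were thus not shown to differ between batches. Of the 1282 genes called in both in the same direction, 247 nonetheless differed in size.

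Among the 1214 such genes of at least 5 CPM, the control levels of the batches were further apart than the double knockout levels for 757 (62.4%), against 45.4% of all 9469 genes at that level. Levels were scaled within each batch separately, so comparisons across batches carry that step. Dmpk, a muscle protein kinase, was at 19.1, 24.2, 21.5, 21.3 and 20.5 CPM in b1 control cells and 92.6, 110, 89.1 and 112 in those of b2, and at 21.3, 21.5, 22.8, 26.5 and 44.2 and 26.7, 25.6 and 26.5 in the double knockouts. It fell in b2 (-1.94 ± 0.11 SE, adjusted p = 2.49e-10) and not in b1 (0.36 ± 0.18 SE, adjusted p = 0.144). In resting b2 cells it was at 90.5 and 88.2 CPM, so the b2 difference was seen with DMXAA and not at rest (contrast -1.90 ± 0.16, adjusted p = 1.81e-06).

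Spp1, the cytokine osteopontin, was at 1016.3 ± 112 CPM in b1 control cells and 2507.6 ± 335 in those of b2, and at 735 ± 61.4 and 471 ± 54.5 in the double knockouts (-0.47 ± 0.14 SE, adjusted p = 0.017; -2.41 ± 0.11 SE, adjusted p = 1.01e-11). Irf1 followed the reverse order, with control levels of 124 CPM in b1 and 25.4 in b2 (difference between batches -1.36 ± 0.22 SE, adjusted p = 3.85e-05). Id3, a repressor of helix-loop-helix factors, rose in b1 from 2.53 to 13.2 CPM (2.38 ± 0.22 SE, adjusted p = 4.98e-09), whereas both groups of b2 were at 25.6 and 22 CPM (-0.22 ± 0.21 SE, adjusted p = 0.61). Cd24a, a small surface glycoprotein, differed by -1.95 ± 0.09 (SE, adjusted p = 2.01e-17) in b1 and -4.16 ± 0.34 (SE, adjusted p = 3.44e-08) in b2. Gm45717 was at 0.608, 0.422, 0.845, 0.765 and 0.709 CPM in b1 control cells and 41.1, 44.8, 0.886, 1.12 and 0.101 in the double knockout, and at 0.518, 0.778, 0.998 and 19 against 0.156, 0.497 and 0.724 in b2, so its b1 double knockout level rests on libraries 1 and 2 and its b2 control level on library N.

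For Trp53i11 (ENSMUSG00000068735.15, GRCm39 chromosome 2, 93017893 to 93032104), named for its induction by p53, the control levels were alike and the double knockout levels were not. Control cells held 67.3, 67.9, 60.8, 55.1 and 60.2 CPM in b1 and 64.7, 59.9, 59.7 and 61.4 in b2. Double knockout cells held 0.877, 0.78, 0.807, 1.18 and 0.669 in b1 and 9.68, 14.1 and 14.4 in b2 (-6.18 ± 0.09 SE, adjusted p = 1.99e-31; -2.27 ± 0.12 SE, adjusted p = 3.7e-11), with no overlap between the batches' double knockout libraries. The test of the difference gave -3.90 ± 0.14 (SE, adjusted p = 1.39e-24). The single knockouts held 32.9 CPM (SGK3, b1) and 56.3 CPM (SGK1, b2).

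Cd33, an inhibitory sialic acid receptor, rose in both batches, from 83.6 ± 7.28 to 135 ± 14.2 CPM in b1, and in b2 from 23.4 ± 2.04 to 173 ± 29.6 (0.70 ± 0.07 SE, adjusted p = 1.23e-08; 2.88 ± 0.13 SE, adjusted p = 6.73e-12). Ndrg4, a relative of Ndrg1, rose from 40.2 ± 2.95 to 77.7 ± 3.74 and from 16.4 ± 1.63 to 137 ± 5.75 CPM. Plxnd1, a semaphorin receptor, rose in b2 alone (2.04 ± 0.14 SE, adjusted p = 4.15e-09; 0.10 ± 0.06 SE, adjusted p = 0.253 in b1). For all 3 the difference between batches passed (adjusted p at most 4.57e-13), and the double knockout was also higher at rest in b2 (adjusted p = 0.000111, 8.98e-10 and 0.0357).

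**Figure D5:**
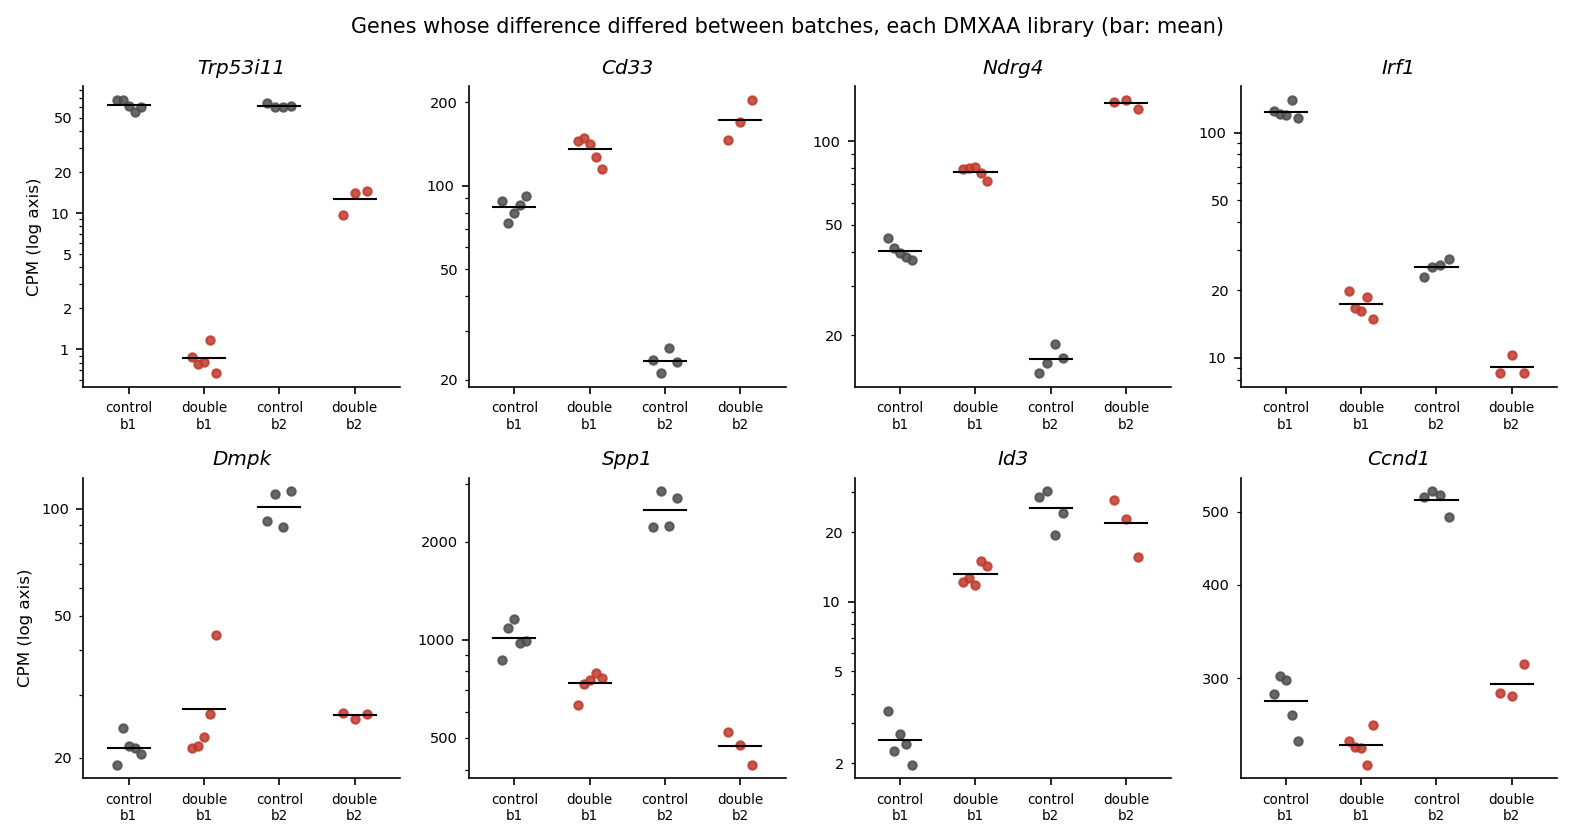
Level of 8 genes whose difference differed between batches, in each DMXAA library (CPM, log axis) of control cells (grey) and double knockout cells (red), with a bar at the mean. Control levels of Cd33, Ndrg4, Irf1, Dmpk, Spp1, Id3 and Ccnd1 differ between b1 and b2, while for Trp53i11 the control levels are alike and the double knockout levels differ.

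Calls in opposite directions were few and small. Arc, an activity-regulated immediate early gene, fell from 11.3 ± 2.19 to 6.12 ± 1.13 CPM in b1 and rose from 4.52 ± 0.904 to 9 ± 2.2 in b2 (-0.89 ± 0.13 SE, adjusted p = 2.19e-06; 0.99 ± 0.26 SE, adjusted p = 0.0142). The other 5 of the 6 with the largest such differences among protein-coding genes of at least 5 CPM with separated groups, Tmem26, Cry2, 2410002F23Rik, Plp2 and Tfap4, rose in b1 (by 0.74, 0.59, 0.46, 0.37 and 0.43) and differed by -0.63, -0.52, -0.53, -0.38 and -0.35 in b2. In each of these 5, control levels were higher in b2 than in b1. The b2 calls of all 6 ended without at least 1 library. For Arc these were U (adjusted p = 0.104) and L (0.0545), for Tmem26 U (0.0825), for Plp2 X (0.0791) and L (0.0525), and for 2410002F23Rik X (0.107) and N (0.0576). For Cry2 the libraries were U (0.128), X (0.187), L (0.063), M (0.0626) and N (0.142), and for Tfap4 U (0.126), X (0.145), K (0.109) and L (0.0632).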

How the data were processed

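RNA of RAW264.7 cells had been sequenced from poly-A selected libraries, per the labels' protocols. Reads were aligned with STAR 2.7.9a to GRCm39 and quantified with StringTie 2.2.0, per the submitters' processing notes. The deposited expected counts per gene (55416 genes) were whole numbers, and the authors also deposited TPM. Low values cluster at 4, so 1 read pair was taken as 4 counts, and this unit is uncertain. Coordinates are those of the deposited tables (GRCm39), and promoters are RefSeq's on GRCm38.p6.

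The counts were tested with edgeR 4.0.16 (quasi-likelihood, robust, TMM, filterByExpr, R 4.3.3) within each batch on all its libraries (26 in b1, 20 in b2), with Benjamini-Hochberg adjustment over all genes tested and a threshold of 0.05. The difference between batches came from 1 fit of all 46 libraries. The script was tested on simulated data. Counting depth limits precision only for genes of few counts. Replicate numbers in b1 were checked for pairing.

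Members and lists were chosen with earlier results of these data known. Named genes were the 12 highest and 12 lowest protein-coding genes called in both batches in 1 direction, separated in each and of at least 5 CPM; up to 6 called in opposite directions; up to 6 each way with the greatest difference between batches; fixed pathway genes; and up to 3 per list and direction; Ndrg2 was added after its values were seen. Alternatives used DESeq2 1.42.0 and limma 3.58.1 (log2 of TPM plus 0.5), other scaling, no filter, fewer or all libraries, counts divided by 4, a length correction, a replicate block and each library left out. The contrast of the difference with DMXAA against that at rest, and limma with a variance of its own per batch, were chosen after seeing the data. The 4 rerun libraries were left out, and a few genes that the rule names are not reported here. Figures were drawn with matplotlib 3.10.9.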

Additional observations from a re-analysis of the deposited data

Results flagged for a closer look

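Among 284 combinations of a named gene and a group of 4 or 5 libraries, 20 had 1 library far from the rest, where chance gives about 1 in 20. Of these, 10 came from double knockout library 5 of b1. It held 1.4 CPM of Ifnb1, 189 of Cxcl10, 159 of Ifit1, 246 of Tnf, 38.6 of Clec4e, 27 of Nfkbiz, 66.9 of Pdcd1 and 284 of Mpeg1, all below the other 4 libraries, and 20.2 of Gja1 and 44.2 of Dmpk, above them. Leaving this library out kept 1242 of the 1282 calls shared in direction by both batches. Double knockout library 4 of b1 stood apart for Atp6v0d2 (6.13 CPM), Tsc22d3 (5.51) and Acp5 (3.51). In b1 control cells, library 1 did so for Arc (15.1 CPM), library 2 for Ccl9 (227) and library 5 for Mlkl (12.5). In b2 control cells, library L did so for Gpnmb (2.98 CPM) and Sdc3 (51.8), library K for Sgk1 (24.7) and library N for Gm45717 (19.0).

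The difference between double knockout and control cells differed between batches, by the test of that difference, for 36 of the 103 named genes examined here. Irf2bpl (0.37, adjusted p = 0.0111) and Bak1 (0.30, adjusted p = 0.0255), named above but outside these 103, passed the same test. Values are b1 minus b2 on the log2 scale. Among interferon genes it was 1.6 for Irf7, 1.57 for Lgals9, 1.18 for Trim30a, 2.72 for Ifi44l and -1.36 for Irf1. The adjusted p of Lgals9 was 0.0469, and 17 of 25 alternatives ended its call (adjusted p up to 0.355), 11 of them with 1 library left out (0.059 to 0.247, the latter without X). Trim30a lost its call without T (adjusted p = 0.0598), without U (0.0883) and with limma on TPM (0.0847). With a variance of its own for each batch, Irf7 (adjusted p = 0.418), Lgals9 (0.308), Trim30a (0.335), Ifi44l (0.288), Btg3 (0.5), Gm45717 (0.614) and Gja1 (0.319) did not pass. Without library U, Btg3 (0.0568), Gja1 (0.0771) and Hmgcs1 (0.0823) did not pass, nor did Btg3 without X (0.0811) and Gja1 without K (0.0589). Among immediate early genes it was -1.05 for Egr1, -1.58 for Egr3 and -1.87 for Arc. For genes called in opposite directions it was 1.38 for Tmem26, 1.12 for Cry2, 1.0 for 2410002F23Rik, 0.76 for Plp2, 0.79 for Tfap4 and 0.48 for Ndrg2. The value was 8.23 for Gm45717, 4.31 for Btg3, 2.61 for Id3, 2.31 for Dmpk, 2.22 for Cd24a and 1.96 for Spp1. Lower values in b1 were -3.9 for Trp53i11, -3.05 for Acp5, -3.03 for Atp6v0d2, -2.23 for Angptl2, -2.18 for Cd33, -2.09 for Ndrg4, -1.92 for Plxnd1, -1.12 for Fcgr3, -0.82 for Gja1, -0.73 for Mpeg1 and -0.4 for Hmgcs1. Smaller positive values were 0.8 for Ctsl, 0.63 for Ccnd1, 0.45 for Msr1, 0.44 for Pdia6 and 0.29 for Psat1.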

How the results depend on the processing

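Counts of called genes depended on the fit. With all 46 libraries in 1 fit, 2446 genes were called in b1 and 3961 in b2, in place of 4468 and 2134. Genes called in opposite directions numbered 59, and 21 with limma on TPM, 90 with the length trend removed and 31 without library X. Genes differing between batches numbered 1332, and 850 without X, 2176 without T and 987 with a variance of its own for each batch. Of the 1332, 60% were higher in b1, against 358 of 938 with limma on TPM. The difference of Btg3 between batches reversed to -0.38 with limma on TPM (adjusted p = 0.378). The cause was not tested for any of these. With 1 library left out, calls ranged from 4002 to 4404 in b1, from 1454 (without X) to 2145 in b2 and from 993 to 1273 in the same direction in both, and opposite calls from 31 to 69. Between 934 and 1242 of the 1282 shared genes were called again. Sgk1 ranged from -3.48 to -3.26 in b1 and from -4.01 to -3.62 in b2, and Sgk3 from 0.22 to 0.26 and from -0.1 to 0.15. With the replicate block, b1 called 4078 genes, and 4703 with the length trend also removed. The numbers did not pair the b1 libraries, since same-numbered libraries correlated at -0.0503 to 0.0914 and none best with its own number. In b2 the letters are not shared between groups. The alternatives were read for 103 of the named genes, and not for others named above, such as Bak1 and Irf2bpl. Of the calls among these 103, 96 of 99 in b1, 78 of 92 in b2 and 26 of 36 between batches held under every alternative run. When scaling or the fitted libraries changed, 167 of 168 list medians moved by less than the median SE of their genes. Depth limits the genes at or near 0 in 1 group, where only bounds are given.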
